A study of Mus musculus with 19 samples.

Results

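The genes described here are 40 neuronal and synaptic genes, measured in glial progenitor cells (GPC) and in glia that had been grown from mouse embryonic stem cells. They were chosen by name from a list of 41 genes known from neurons: markers of neuronal identity and the neuronal cytoskeleton, enzymes and transporters of transmitter, the synaptic vesicle and its fusion machinery, adhesion molecules across the synaptic cleft, postsynaptic scaffold and calcium-signalling proteins, and granule proteins. Of the 41 symbols, 40 were among the 22958 genes of the expression table. Map2 was not found by its symbol, stands there under the older name Mtap2, and is given apart.

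RNA was sequenced from 4 GPC libraries and 3 glia libraries. The labels describe 1 culture protocol in the same words for both groups: 0.1 µM all-trans retinoic acid, a magnetic sort on day 8 for A2B5, a ganglioside carried by early glial cells, and growth on fibronectin in N2B27 medium with EGF and FGF2 at 10 ng/ml each. The sources used here do not say how the culture of glia differed from that of GPC, and no genetic change is named for either group. The transcription factors SOX3, SOX9 and NFIA, all 3 active in glial progenitors, were mapped by ChIP-seq in glial progenitors. There were 2 SOX3, 3 SOX9 and 2 NFIA samples, with 1 deposited peak list per factor. The labels number the replicates but do not say whether each was a culture of its own. The p-values therefore reflect only how far these libraries differ within a group, which may be a technical spread.

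At a chemical synapse, synaptic vesicles dock at the presynaptic membrane and fuse when calcium binds synaptotagmin, which acts on the SNARE complex of syntaxin, SNAP25 and VAMP under the control of complexin. Neurexins on the presynaptic side bind neuroligins on the postsynaptic side, where scaffold proteins such as PSD-95 and Homer hold receptors and the calcium-dependent kinase CaMKII. Many of these genes are not exclusive to neurons: astrocytes and the oligodendrocyte lineage also use neuroligins, VAMPs and secretory granule proteins. Outside neurons many neuronal genes are held silent by the REST complex, which binds a sequence called RE1.

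Counted reads ran from 6897294 to 22439837 per library, and reads of the 40 genes made up 0.234% to 0.302% of them in GPC and 0.324% to 0.336% in glia. GPC replicate 3, the deepest library, stood apart from the other 3 GPC libraries on the second principal component, which held 4.48% of the variance, while the first, separating GPC from glia, held 90.38%. All 10 markers of maturing oligodendrocytes rose, their summed level going from 106 to 130 RPKM (reads scaled to transcript length and library size) in GPC to 1726 to 2450 in glia, with Mbp, the gene of myelin basic protein, at 8.88 RPKM in GPC and 995 in glia. Of 9 astrocyte markers 6 rose (66.7%) and 3 fell (33.3%), where 35.2% of all genes tested rose and 35.2% fell. Their summed level was 1148 to 1428 RPKM in GPC and 4911 to 5576 in glia. Gfap, the gene of the astrocyte intermediate filament, made up most of the glia sum. It went from 8.37 ± 4.70 (SD, n = 4) to 3258 ± 291 RPKM (SD, n = 3). The 3 that fell were Glul, from 373 to 126 RPKM, Slc1a3, from 300 to 182, and Aldh1l1, from 26.75 to 12.0. Of 8 markers of oligodendrocyte precursors 4 rose and 4 fell (50% each), with sums of 1740 to 1939 RPKM in GPC and 918 to 1137 in glia. Olig1, from 1110 to 496 RPKM, and Olig2, from 534 to 275, made up most of both sums and fell. Cspg4 and Ptprz1 fell too, while Pdgfra, from 20.7 to 53.6 RPKM, Gpr17, from 22.9 to 126, Sox10 and Neu4 rose. Among 10 markers of mesenchyme and muscle 7 could be tested and rose, with sums of 146 to 160 RPKM in GPC and 651 to 792 in glia. None of the 8 endocrine markers in the table passed the filter on low counts, and their sums stayed between 0.458 and 1.27 RPKM. The part of these cell types in the changes of the neuronal genes was not tested. In such bulk libraries fewer cells of a type and less RNA per cell cannot be told apart.

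Most of the neuronal and synaptic genes were higher in glia than in GPC, but the 5 listed for postsynaptic scaffold and calcium signalling (Dlg4, Homer1, Camk2a, Camk2b and Nrgn) were lower. The filter on low counts left 36 of the 40 genes, and the quasi-likelihood test of edgeR, with p-values adjusted by Benjamini and Hochberg's method over all 13588 genes tested, called 21 of the 36 higher in glia, 7 lower and 8 neither. The rising genes were 58.3% of the 36, where 35.2% of all genes tested rose, and the falling genes 19.4%, where 35.2% fell. The share that changed in either direction, 77.8%, was near the 70.4% of all genes tested. A rise of 2-fold or more was called for 11 genes, 30.6%, against 16.5% of all genes tested, and a fall of that size for 3, 8.33%, against 9.24%. The GPC and glia levels did not overlap for 28 of the 36, 77.8%, against 69.1% of all genes tested. Without GPC replicate 3, 23 rose and 8 fell. The difference between 2 libraries, as a chi-square per gene, was 2.03 to 3.535 among GPC replicates 1, 2 and 4. It was 25.713 to 29.737 for pairs with GPC replicate 3. Every adjusted p-value given without GPC replicate 3 therefore rests on GPC libraries that lay close together. Their spread may be a technical one, so such p-values may be too small. The median log2 change of the 36 was 0.68 (0.79 without GPC replicate 3), and that of all genes tested was 0.00.

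**Figure D1:**
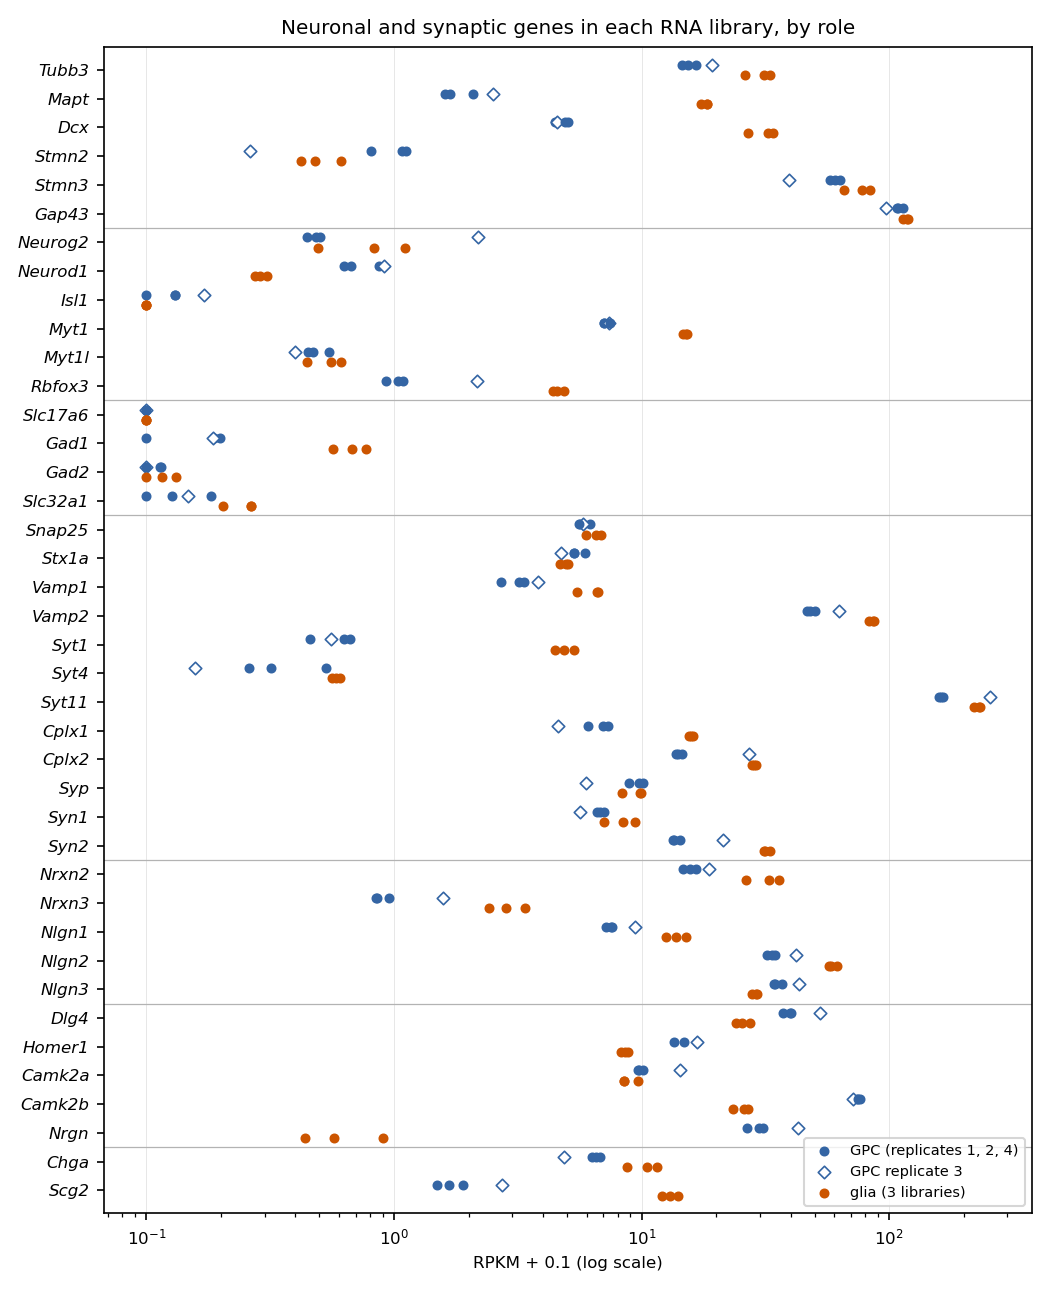
Level of each of the 40 genes in every RNA library, as RPKM + 0.1 on a log axis, grouped by role; blue points are GPC (the open diamond is GPC replicate 3) and orange points are glia. Nrgn, near the bottom, sits at 26.7 to 42.8 RPKM in GPC and below 1 RPKM in glia, while Mapt, Dcx, Syt1 and Scg2 lie to the right in glia.

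Levels covered a wide range within each group. In GPC 15 of the 40 genes averaged at least 10 RPKM, 13 lay between 1 and 10, and 12 were below 1 RPKM. In glia the same counts were 19, 10 and 11. The highest level in both groups was that of Syt11, a synaptotagmin that does not bind calcium, followed by Gap43, a growth-cone protein: both averaged above 100 RPKM in GPC and in glia.

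Among the genes of the neuronal cytoskeleton and axon growth, 4 of the 6 tested rose (66.7%) and none fell. Of all genes tested 35.2% rose and 35.2% fell. Mapt encodes tau, which binds axonal microtubules. Its levels were 1.51, 1.58, 2.40 and 1.98 RPKM in the GPC libraries and 18.3, 17.3 and 18.3 RPKM in glia. All 3 glia libraries thus lay far above every GPC library, a 9.26-fold rise (log2 3.21 ± 0.14 SE, adjusted p = 3.85e-08). Dcx encodes doublecortin, a microtubule protein of migrating young neurons, and was at 4.38, 4.94, 4.46 and 4.82 RPKM in GPC against 32.2, 33.7 and 26.7 in glia. The groups did not overlap, and the rise was 6.47-fold (log2 2.69 ± 0.09, adjusted p = 6.41e-09). Tubb3, the neuronal beta-tubulin, stood at 16.4, 14.4, 19.2 and 15.4 RPKM in GPC and 31.2, 26.0 and 33.0 in glia. Every glia library was above the highest GPC library, GPC replicate 3, and the rise was 1.80-fold (adjusted p = 1.03e-04).

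The other members of this group changed little or not detectably. Stmn3, a stathmin that destabilises microtubules, went from 55.04 ± 10.7 RPKM (SD, n = 4) to 75.6 ± 8.93 (SD, n = 3), with an adjusted p of 0.0293 in edgeR. That call was lost when GPC replicate 4 (adjusted p = 0.0504), glia replicate 1 (0.0822) or glia replicate 3 (0.115) was left out. Gap43 was at 106.5 ± 7.11 RPKM in GPC and 117 ± 2.83 in glia, and the 95% interval of its log2 change ran from -0.03 to 0.24. Stmn2, another stathmin, known from growth cones, was at 0.978, 1.02, 0.163 and 0.709 RPKM in GPC and 0.321, 0.380 and 0.513 in glia. GPC replicate 3 lay below all glia libraries and the other 3 GPC libraries above them, so the change of -0.73 did not pass the test (adjusted p = 0.274), whereas without that library it was -1.15 (adjusted p = 0.00234). Mtap2, the table's entry for Map2, the microtubule protein of dendrites, was at 149.8 ± 8.64 RPKM in GPC and 127 ± 13.4 in glia (log2 -0.27 ± 0.08, adjusted p = 0.0131), with overlapping groups. Without glia replicate 3 that call was lost (adjusted p = 0.0613).

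The regulators of neuronal identity moved in different directions. Of 5 tested, 2 rose (40%), 1 fell (20%) and 2 did neither. Of all genes tested 35.2% rose, near the share here, and 35.2% fell. Myt1, a zinc-finger factor of neuronal differentiation also known from oligodendrocyte precursors, was at 6.95, 6.95, 7.26 and 7.37 RPKM in GPC and 15.1, 14.6 and 15.1 in glia. The levels were tight within each group and doubled between them, at 2.08-fold (log2 1.05 ± 0.06, adjusted p = 2.35e-07). Its relative Myt1l remained below 0.6 RPKM in every library (log2 0.29 ± 0.21, adjusted p = 0.226). Rbfox3, which encodes the nuclear antigen NeuN, was at 0.941, 0.988, 2.06 and 0.8287 RPKM in GPC and 4.78, 4.31 and 4.45 in glia. GPC replicate 3 was the highest of the GPC libraries but still below all glia libraries, and the rise was 3.05-fold (adjusted p = 3.58e-05).

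The proneural factors did not follow. Neurod1, a basic helix-loop-helix factor of differentiating neurons, was at 0.529, 0.766, 0.810 and 0.572 RPKM in GPC and 0.186, 0.174 and 0.207 in glia, resting on 107 and 20 reads. It was lower in all 3 glia libraries than in any GPC library (log2 -1.84 ± 0.30, adjusted p = 2.65e-04). Neurog2, the proneural factor upstream of it, was at 0.403, 0.345, 2.09 and 0.383 RPKM in GPC and 0.734, 0.392 and 1.01 in glia. GPC replicate 3 lay above every other library: the log2 change was -0.27 with it (adjusted p = 0.749) and 1.01 without it (adjusted p = 0.0121). Isl1, a homeodomain factor of motor and sensory neurons, had 6 reads in all GPC libraries together and none in glia, where a count of 0 allows up to 3 reads per library.

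Genes that define a transmitter type were at or near 0. Slc17a6, the vesicular glutamate transporter VGLUT2, had no read in any library, which allows up to 3 reads in each. Gad2, a GABA-synthesising enzyme, had 2 reads in GPC and 5 in glia, and Slc32a1, the vesicular GABA transporter, 7 and 18. Only Gad1, the other GABA-synthesising enzyme, could be tested, at 0.0871, 0.0980, 0.0854 and 0 RPKM in GPC and 0.578, 0.673 and 0.470 in glia. Its reads were 4, 4, 6 and 0 in GPC and 31, 15 and 26 in glia, so the groups did not overlap, although the level in glia stayed below 1 RPKM (log2 2.88 ± 0.44, adjusted p = 1.85e-04).

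The vesicle and fusion group held both the steepest rise among the 36 tested genes and genes that hardly moved. Of its 12 members, all tested, 8 rose (66.7%), none fell and 4 did neither, where 35.2% of all genes tested rose and 35.2% fell. Without GPC replicate 4, glia replicate 1 or glia replicate 3 the count of rising members was 5 in each case, and without GPC replicate 3 it was 9. The summed level of the group was 270.3 to 396 RPKM in GPC and 422 to 433 in glia.

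Syt1, the calcium sensor of fast transmitter release, was at 0.360, 0.567, 0.459 and 0.531 RPKM in GPC and 4.78, 5.24 and 4.36 in glia. All GPC libraries were below 1 RPKM and all glia libraries above 4, a 9.70-fold rise (log2 3.28 ± 0.15, adjusted p = 4.92e-08). The authors' list paired Syt1 with a SOX9 peak (mm9 chr10:108447796-108448396) whose centre lay 58 bp before its transcription start. Of the 13 SOX9 peaks paired with these genes it was the 1 within 1 kb of a start, where 239 of all 2943 SOX9 peaks, 8.12%, lay. The RefSeq promoter table (GRCm38.p6) holds 2 Syt1 starts, and since its build differs from that of the peaks, neither could be tied to the peak. The 250 bases before each start, on the minus strand, are printed to show the SOX core sequence, searched as ACAATG or ACAAAG on both strands, in capitals. The first, chr10:109009112-109009361, holds it 1 time, read on the opposite strand, 76 bases before the start, and the second, chr10:109010976-109011225, does not hold it.
Syt1 start 1: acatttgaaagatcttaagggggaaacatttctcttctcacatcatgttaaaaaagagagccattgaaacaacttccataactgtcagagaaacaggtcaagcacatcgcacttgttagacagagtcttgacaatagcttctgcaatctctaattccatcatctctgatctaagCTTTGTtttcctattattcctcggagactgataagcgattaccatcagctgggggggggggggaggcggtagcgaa
Syt1 start 2: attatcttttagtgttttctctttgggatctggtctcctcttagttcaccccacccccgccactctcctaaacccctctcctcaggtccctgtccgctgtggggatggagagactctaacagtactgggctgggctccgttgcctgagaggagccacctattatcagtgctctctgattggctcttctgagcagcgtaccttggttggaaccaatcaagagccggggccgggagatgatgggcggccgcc

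These letters are common: 28.6% of all 32851 promoter windows (250 bases before to 50 after a start) hold the SOX core, and 14 of the 47 windows of the neuronal genes, 29.8%, do. RefSeq windows were found for 31 of the 40 genes. The E-box letters of proneural factors (CAGCTG or CAGATG, both strands) were in 36.2% of the 47 windows and 30.6% of all windows.

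The proteins of the SNARE core were uneven. Vamp2, the VAMP of synaptic vesicles and of many secretory vesicles, was at 46.5, 47.7, 62.6 and 50.3 RPKM in GPC and 82.5, 86.8 and 85.8 in glia. Each glia library was above each GPC library, and the rise was 1.60-fold (log2 0.68 ± 0.10, adjusted p = 1.68e-04). Vamp1, the VAMP of motor and sensory synapses, went from 3.17 ± 0.46 RPKM (SD, n = 4) to 6.16 ± 0.66 (SD, n = 3), with an adjusted p of 1.79e-04 in edgeR. The 2 partners at the plasma membrane did not pass the test. Snap25 was at 5.53, 6.10, 5.69 and 5.50 RPKM in GPC and 6.43, 6.73 and 5.85 in glia, and the 95% interval of its log2 change was -0.09 to 0.32. Stx1a, syntaxin, was at 5.22 ± 0.47 RPKM in GPC and 4.80 ± 0.18 in glia, with an interval of -0.37 to 0.08.

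Both complexins, which clamp and then promote SNARE-driven fusion, rose. Cplx1 was at 7.22, 6.903, 4.48 and 5.996 RPKM in GPC and 16.04, 15.8 and 15.5 in glia. The groups were well apart, with GPC replicate 3 lowest, and the rise was 2.54-fold (adjusted p = 1.38e-05). Cplx2 was at 13.7, 14.5, 27.2 and 13.9 RPKM in GPC and 28.3, 27.8 and 28.9 in glia. Here GPC replicate 3 was nearly at the glia level, and the call (log2 0.67 ± 0.25, adjusted p = 0.0394) was lost under 7 of the 12 alternatives, among them each omission of another library. With GPC replicate 3 left out, the log2 change was 0.99 (adjusted p = 1.40e-08, resting on the narrow spread of the remaining GPC libraries).

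The synapsins and synaptophysin, proteins on the vesicle itself, differed among themselves. Syn2, a synapsin that tethers vesicles in the reserve pool, was at 13.4, 13.3, 21.2 and 14.3 RPKM in GPC and 31.0, 32.8 and 31.5 in glia. The groups did not overlap, and the rise was 2.03-fold (log2 1.02 ± 0.15, adjusted p = 2.50e-04). Syn1, its closest relative, was at 6.98, 6.69, 5.52 and 6.53 RPKM in GPC and 9.28, 6.97 and 8.32 in glia. Glia replicate 2 lay within the GPC range, and the call (log2 0.34 ± 0.12, adjusted p = 0.0272) was lost without GPC replicate 4 (0.0555), glia replicate 1 (0.159) or glia replicate 3 (0.0688). Araf and Timp1 overlap Syn1 in the annotation and Timp4 overlaps Syn2, and Gm5136 overlaps Syt1. The sources used here do not give the strand of counting, so reads of the overlapping parts cannot be told apart. Syp, synaptophysin of the vesicle membrane, was at 8.59 ± 1.88 RPKM in GPC and 9.25 ± 0.91 in glia (log2 0.10 ± 0.17, adjusted p = 0.606). Its log2 change was -0.04 without GPC replicate 3 (adjusted p = 0.706).

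The Syn1 promoter is printed because it holds the closest match to RE1, the element bound by REST. The motif searched for RE1 was a 17-base string with 2 free positions in its middle, read on both strands with up to 3 mismatches. It was found in 1.17% of all windows and in 3 of the 47 windows of these genes, 6.38%. In the next line, chrX:20920919-20921168 on the minus strand (GRCm38.p6), the 250 bases before the Syn1 start, the match is in capitals and begins 232 bases before the start.
Syn1 promoter: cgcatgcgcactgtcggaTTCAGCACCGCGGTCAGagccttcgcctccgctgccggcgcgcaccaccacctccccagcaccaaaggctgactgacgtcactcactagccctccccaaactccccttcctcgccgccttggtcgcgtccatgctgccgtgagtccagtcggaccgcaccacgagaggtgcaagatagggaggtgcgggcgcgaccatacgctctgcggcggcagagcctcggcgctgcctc

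The matches of the 3 genes differ in how many letters they share with the motif, and capitals mark the shared letters. The Syn1 match has 1 mismatch, and those of Gad2 and Nlgn1, 166 and 153 bases before their starts, have 3 each.
Syn1 match: TTCAGCACCgcGGtCAG
Gad2 match: ggtAGCACCctGGACAG
Nlgn1 match: TTCAGCACCctGGttAc

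The expression of these 3 genes in glia was unlike: Gad2 had 5 reads in all, Syn1 was at 8.19 ± 1.17 RPKM and Nlgn1 at 13.75 ± 1.28. With up to 2 mismatches allowed, Syn1 alone held a match.

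The remaining synaptotagmins lay at opposite ends of the range. Syt11 was at 158.5, 162 and 165 RPKM in GPC replicates 1, 2 and 4, at 255 in GPC replicate 3 and at 232, 219.5 and 231 in glia. GPC replicate 3 was the highest library of all, and the change did not pass the test (log2 0.26 ± 0.17, adjusted p = 0.184). It did without that library (log2 0.46, adjusted p = 5.72e-06), a p-value that rests on the narrow spread of the remaining GPC libraries. Syt4, a synaptotagmin of dense-core vesicles, was at 0.159, 0.431, 0.0569 and 0.217 RPKM in GPC and 0.507, 0.483 and 0.464 in glia. The groups did not overlap, but the call (log2 1.25 ± 0.48, adjusted p = 0.0373) was lost under 6 of 11 alternatives. Leaving out GPC replicate 2 moved its log2 change to 1.85 and leaving out GPC replicate 3 to 0.82.

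Of the 5 adhesion genes 4 rose (80%) and 1 fell (20%), where 35.2% of all genes tested rose and 35.2% fell. Nrxn3, a neurexin, was at 0.856, 0.756, 1.48 and 0.748 RPKM in GPC and 2.74, 3.28 and 2.32 in glia, without overlap, although GPC replicate 3 was the highest of its group (log2 1.45 ± 0.24, adjusted p = 5.39e-04). Nrxn2, another neurexin, went from 16.3 ± 1.74 RPKM (SD, n = 4) to 31.6 ± 4.90 (SD, n = 3), a 1.90-fold rise (edgeR adjusted p = 6.40e-05).

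The neuroligins, the postsynaptic partners of neurexins, split. Nlgn1, the form of excitatory synapses, was at 7.09, 7.44, 9.27 and 7.51 RPKM in GPC and 13.7, 15.0 and 12.5 in glia, all glia libraries being higher (log2 0.76 ± 0.10, adjusted p = 6.73e-05). Nlgn2, the form of inhibitory synapses, was at 34.3, 32.0, 41.9 and 33.4 RPKM in GPC and 57.9, 57.0 and 61.3 in glia, again without overlap (log2 0.70 ± 0.10, adjusted p = 8.70e-05). Nlgn3, found at both kinds of synapse and in oligodendrocyte precursors, was at 36.9, 34.3, 43.0 and 34.6 RPKM in GPC and 29.2, 28.8 and 27.7 in glia. It was lower in every glia library (log2 -0.41 ± 0.09, adjusted p = 0.00189). As shares of the summed neuroligin level, Nlgn3 went from 46.3% ± 0.67 to 28.3% ± 0.83 and Nlgn2 from 44.0% ± 0.48 to 58.1% ± 2.00.

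The 5 genes grouped as postsynaptic scaffold and calcium signalling all fell, where 35.2% of all genes tested fell. Of the postsynaptic adhesion genes, Nlgn3 fell as well, while Nlgn1 and Nlgn2 rose. The summed level of the 5 genes was 164 to 198 RPKM in the GPC libraries and 65.6 to 70.5 in glia. Nrgn encodes neurogranin, which holds calmodulin in dendritic spines. It was at 29.8, 26.7, 42.8 and 30.8 RPKM in GPC and 0.472, 0.336 and 0.7996 in glia. No glia library reached a level near that of GPC: 2711 reads were counted in GPC and 32 in glia, the level was 55.7-fold lower (log2 -5.80 ± 0.28, adjusted p = 9.37e-08), and its log2 change ranked 6 from the bottom among the 13588 genes tested. Among tested genes, its percentile went from 76.0 in GPC to 4.4 in glia.

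Camk2b, the beta subunit of CaMKII, was at 76.4, 73.7, 71.6 and 74.9 RPKM in GPC and 26.8, 23.3 and 25.9 in glia. The libraries were tight within each group and well apart between them, with a 2.96-fold lower level in glia (log2 -1.57 ± 0.07, adjusted p = 2.65e-08). Camk2a, the alpha subunit and the main form of forebrain neurons, was at 10.1, 9.61, 14.2 and 9.69 RPKM in GPC and 8.40, 9.55 and 8.36 in glia. The groups touched without overlapping, GPC replicate 3 was the highest, and the call (log2 -0.41 ± 0.15, adjusted p = 0.0291) was lost without glia replicate 1 (0.0928) or glia replicate 3 (0.103). Leaving out GPC replicate 3 moved the log2 change to -0.25 (adjusted p = 0.00786).

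The other 2 CaMKII subunits, which occur in many tissues and were looked at after the values of the first 2 were seen, rose. Camk2g went from 25.6 ± 1.77 RPKM (SD, n = 4) to 65.0 ± 1.78 (SD, n = 3), with a log2 change of 1.31 ± 0.07 (edgeR adjusted p = 1.28e-07). Camk2d went from 11.5 ± 1.31 to 34.9 ± 2.75 RPKM (log2 1.55 ± 0.10, adjusted p = 2.60e-07). Camk2b therefore made up 60.8% ± 2.98 of the summed CaMKII level in GPC and 18.9% ± 1.33 in glia, while Camk2g went from 20.9% ± 0.98 to 48.5% ± 1.39.

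Dlg4 and Homer1, the scaffold genes of the group, fell too. Dlg4, which encodes PSD-95, the main scaffold of the excitatory postsynaptic density, was at 39.6, 37.1, 52.3 and 40.2 RPKM in GPC and 25.3, 23.9 and 27.2 in glia. Every glia library was lower, a change of -0.76 ± 0.12 on the log2 scale (adjusted p = 2.80e-04). Homer1, which links metabotropic glutamate receptors to the scaffold, was at 13.4, 16.7, 16.6 and 14.8 RPKM in GPC and 8.71, 8.46 and 8.18 in glia, again all lower (log2 -0.82 ± 0.11, adjusted p = 6.99e-05). The relatives of Dlg4, looked at after its value was seen, rose: Dlg1 went from 16.04 ± 0.65 to 28.6 ± 2.64 RPKM (log2 0.80 ± 0.07, adjusted p = 4.78e-06), and Dlg3 from 9.46 ± 0.84 to 12.3 ± 0.66 (log2 0.44 ± 0.09, adjusted p = 0.00115). Dlg2 was at 0.0679 ± 0.0174 and 0.488 ± 0.0272 RPKM (log2 2.85 ± 0.25, adjusted p = 3.25e-06). The share of Dlg4 in the summed level of the 4 genes went from 62.1% ± 3.82 to 38.2% ± 3.34.

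**Figure D2:**
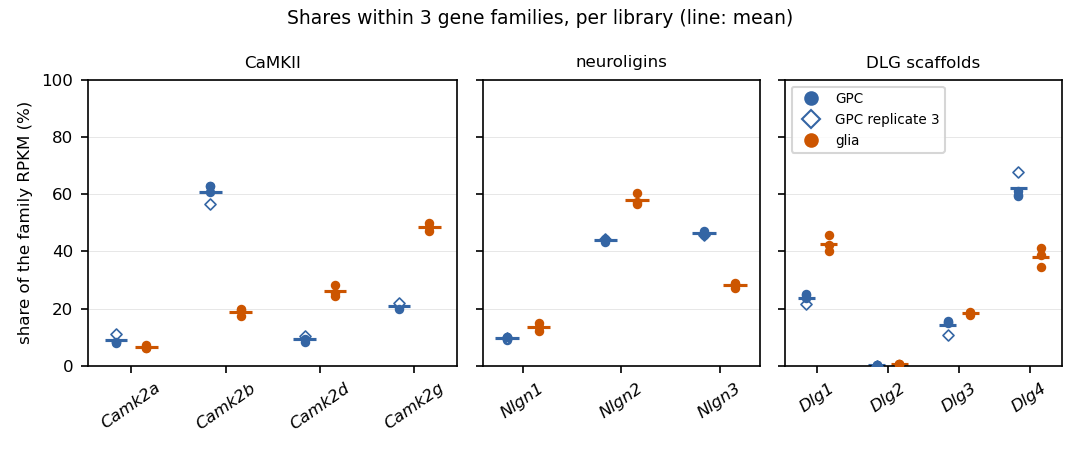
Share of each gene in the summed RPKM of its family, in percent, for CaMKII, neuroligins and DLG scaffolds; points are libraries (blue GPC, open diamond GPC replicate 3, orange glia) and lines are group means. Camk2b, Nlgn3 and Dlg4 hold the largest mean share in GPC, and Camk2g, Nlgn2 and Dlg1 in glia.

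Both genes of dense-core granules, in which peptides and amines are stored, rose, where 35.2% of all genes tested rose. Scg2, secretogranin II, was at 1.39, 1.57, 2.64 and 1.80 RPKM in GPC and 13.9, 12.97 and 11.95 in glia. The glia libraries were all several times above GPC replicate 3, the highest of its group, and the rise was 6.63-fold (log2 2.73 ± 0.18, adjusted p = 5.31e-07). Chga, chromogranin A, was at 6.70, 6.46, 4.77 and 6.23 RPKM in GPC and 11.5, 8.66 and 10.4 in glia, without overlap (log2 0.75 ± 0.14, adjusted p = 8.53e-04). Endocrine cells carry the same granules. Of the 8 endocrine markers 3 had no read in any library and 5 had reads below the filter, among them Pomc with 0.625 RPKM in GPC and 0.557 in glia, and their part in the result was not tested.

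**Figure D3:**
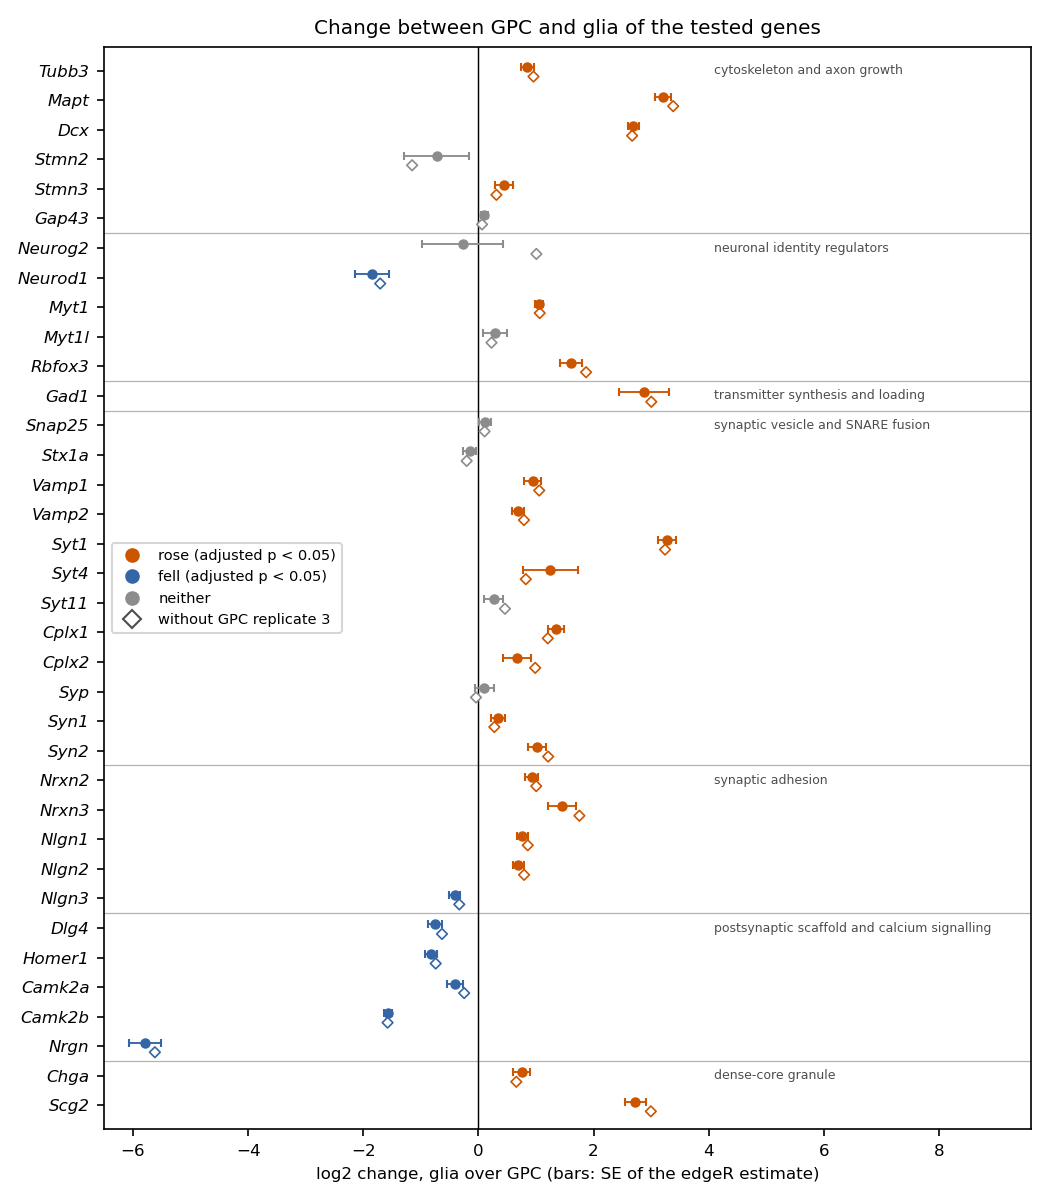
Log2 change between GPC and glia (positive is higher in glia) for the 36 genes tested, by role; filled points with bars are the edgeR estimate and its SE, and open diamonds are the estimate without GPC replicate 3, in the colour of the call made with all libraries. The 5 scaffold and calcium-signalling genes lie left of 0, Nrgn farthest at -5.80, and the vesicle genes lie at or right of 0 except Stx1a at -0.15.

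Other genes of the same pathways were read from 7 lists. Of all genes tested, 35.2% rose and 35.2% fell. Of 46 further vesicle and fusion genes, 42 were tested: 24 rose (57.1%), 8 fell (19.0%) and 10 did neither, with a median log2 change of 0.39. The largest rises were those of Sv2b, a vesicle glycoprotein, from 0.196 to 9.75 RPKM (log2 5.58 ± 0.16), and Rph3a, rabphilin, an effector of the vesicle GTPase RAB3, from 0.205 to 7.79 RPKM (log2 5.16 ± 0.18). The largest falls were those of Cadps2, a priming factor of dense-core vesicles, from 1.37 to 0.431 RPKM (log2 -1.65 ± 0.18), and Syt17, from 3.49 to 1.31 RPKM (log2 -1.29 ± 0.28).

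Further adhesion and scaffold genes also went both ways: of 29 tested, 17 rose (58.6%), 7 fell (24.1%) and 5 did neither, with a median of 0.44. Arc, an immediate early gene that acts at the postsynaptic density, fell from 11.5 ± 1.31 to 0.627 ± 0.263 RPKM (log2 -4.11 ± 0.20, adjusted p = 6.34e-08), and Camkv, a kinase-like protein of spines, from 6.37 to 1.37 RPKM (log2 -2.20 ± 0.13). Cbln2, which encodes a secreted linker of neurexins, had 1, 0, 1 and 0 reads in GPC and 348, 89 and 353 in glia, too few in GPC to size its rise. Lrfn2, of a family of synaptic adhesion proteins, had a log2 change of 3.43 ± 0.42 (4.23 without GPC replicate 3). The postsynaptic scaffolds Shank1, Shank2 and Shank3, named after their values were seen, rose by 1.94, 0.95 and 0.86 on the log2 scale, opposite to Dlg4 and Homer1. Their levels were low, from 0.455 to 1.80, 1.215 to 2.33 and 2.92 to 5.415 RPKM. Other scaffold genes, also named after their values were seen, were mixed. Dlgap1 and Dlgap4 rose (log2 1.12 and 0.34), while Dlgap3 fell from 23.4 to 9.49 RPKM (log2 -1.315). Homer2 fell (log2 -0.28) and Homer3 did neither.

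Of 17 further dense-core and neuropeptide genes 12 were tested, of which 8 rose (66.7%), 2 fell (16.7%) and 2 did neither, with a median of 1.45. Chgb, chromogranin B, rose from 1.18 to 7.27 RPKM (log2 2.59 ± 0.16) and Ptprn2, a phosphatase-like protein of the granule membrane, from 4.62 to 25.5 RPKM (log2 2.43 ± 0.09). The relative of the latter, Ptprn, fell from 6.27 ± 2.61 to 1.104 RPKM (log2 -2.46 ± 0.45, adjusted p = 0.00148), and the neurotrophin-inducible Vgf from 2.78 to 0.713 RPKM (log2 -1.86 ± 0.27).

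The 26 further cytoskeleton genes, all tested, included 16 that rose (61.5%), 3 that fell (11.5%) and 7 that did neither, with a median of 0.60. Tubb4a, a beta-tubulin of neurons and oligodendrocytes, rose from 13.8 to 204 RPKM (log2 3.85 ± 0.21), and Nefh, the heavy neurofilament chain, from 0.0410 to 0.442 RPKM (log2 3.34 ± 0.40). The beta-tubulins of young neurons Tubb2a and Tubb2b fell, by 0.96 ± 0.11 and 0.70 ± 0.09 on the log2 scale, Tubb2b from 949 to 597 RPKM. These 2 tubulins are near-identical copies, so their reads may have been split between them.

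Of 33 further fate regulators only 19 passed the filter, of which 11 rose (57.9%), 4 fell (21.1%) and 4 did neither, with a median of 0.76. Elavl3, an RNA-binding protein of neurons, rose from 2.81 ± 0.16 to 32.0 ± 6.91 RPKM (log2 3.48 ± 0.15). St18, a relative of Myt1, had 1, 2, 7 and 0 reads in GPC and 50, 8 and 54 in glia (log2 3.91 ± 0.53, and 4.93 without GPC replicate 3). Ebf3, a helix-loop-helix factor of neuronal differentiation, fell from 6.09 to 4.47 RPKM (log2 -0.49 ± 0.09).

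Among 14 further genes of transmitter type, 4 could be tested, with 1 rise and 1 fall (25% each). Ddc, which makes dopamine and serotonin from their precursors, rose from 0.398 to 4.81 RPKM (log2 3.50 ± 0.25). The serotonin transporter Slc6a4 had 17, 9, 26 and 15 reads in GPC and 0, 0 and 2 in glia (log2 -4.30 ± 0.64).

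Of the 13 genes of the RE1 silencing complex, all tested, 2 rose (15.4%), 6 fell (46.2%, against 35.2% of all genes tested) and 5 did neither. Their median log2 change was -0.37, and -0.08 without GPC replicate 3. Rest itself, named after its value was seen, was at 7.45 ± 1.26 RPKM in GPC and 5.92 ± 0.51 in glia (log2 -0.37 ± 0.13, adjusted p = 0.0287). The corepressor Rcor1 fell from 16.1 to 9.37 RPKM (log2 -0.82 ± 0.10), and the histone deacetylase Hdac2 from 148 to 84.7 RPKM (log2 -0.84 ± 0.06). The phosphatase gene Ctdsp2 rose from 81.0 to 136 RPKM (log2 0.69 ± 0.06), and its relative Ctdspl by 0.59 ± 0.08 on the log2 scale.

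SOX peaks were paired with a minority of the 40 genes. The authors' lists name a gene for every peak and how far its centre lies from that gene's start. SOX3 peaks were paired with 5 of the 40 genes, 12.5%, against 4.46% of all symbols in the table. SOX9 peaks were paired with 10, 25.0%, against 9.10% of all symbols. Either factor had a peak paired with 13 of the 40, 32.5%, against 11.5%. Among the 36 tested genes the share with either was 33.3%, against 14.5% of all tested symbols. The median distance was 127 kb for the 6 SOX3 peaks of these genes, against 53.6 kb over all SOX3 peaks, and 32.5 kb for the 13 SOX9 peaks, against 45.2 kb. Within 100 kb of a start, 3 genes had a SOX3 peak (7.50%, against 3.16% of all symbols) and 9 a SOX9 peak (22.5%, against 6.81%). Within 10 kb none had a SOX3 peak (against 0.811%) and 4 a SOX9 peak (10.0%, against 2.37%).

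Close SOX9 peaks lay at genes of different direction. Besides Syt1, Dlg4 had one 5.8 kb after its start (mm9 chr11:69836110-69836710), Syt4 one 6.8 kb before it and Stmn2 one 9.5 kb before it (chr3:8499771-8500371), with 2 more at 55.2 and 198.5 kb. Syt1 and Syt4 rose, Dlg4 fell and Stmn2 did neither. Farther away, Cplx1 had a SOX9 peak 14.4 kb after its start (chr5:108964358-108964958) and Myt1 32.5 kb after (chr2:181530243-181530843), and both genes rose. The near-silent Isl1 had one 202.6 kb before its start (chr13:117302207-117302807), and Myt1l had one 387.9 kb before (chr12:29825032-29825632) and one 93.4 kb after (chr12:30306361-30306961). Mtap2 had one 126.2 kb before its start (chr1:66241756-66242356), not counted above.

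SOX3 and SOX9 met at 2 of the 40 genes. At Syt11 a SOX3 peak (chr3:88562035-88562366) 16.9 kb after the start lay wholly within a SOX9 peak (chr3:88561974-88562574), which also shared 301 bp with an NFIA peak of the authors' score 33, against a median score of 16 over 14164 NFIA peaks. At Neurog2 a SOX3 peak (chr3:127408602-127408876) 72.7 kb after the start lay within a SOX9 peak (chr3:127408407-127409007), with no NFIA peak. The other 11 SOX9 peaks of these genes overlapped neither list. Over all 2943 SOX9 peaks, 10.8% overlapped a SOX3 peak and 28.4% an NFIA peak. The SOX3 peaks without a SOX9 peak lay at Syn2, 11.3 kb before its start (chr6:115073594-115073727), at Gap43, 180.5 kb before (chr16:42521145-42521311), and at Nrxn3, 254.3 kb (chr12:90287859-90288016) and 776.1 kb after (chr12:90809704-90809846).

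**Figure D4:**
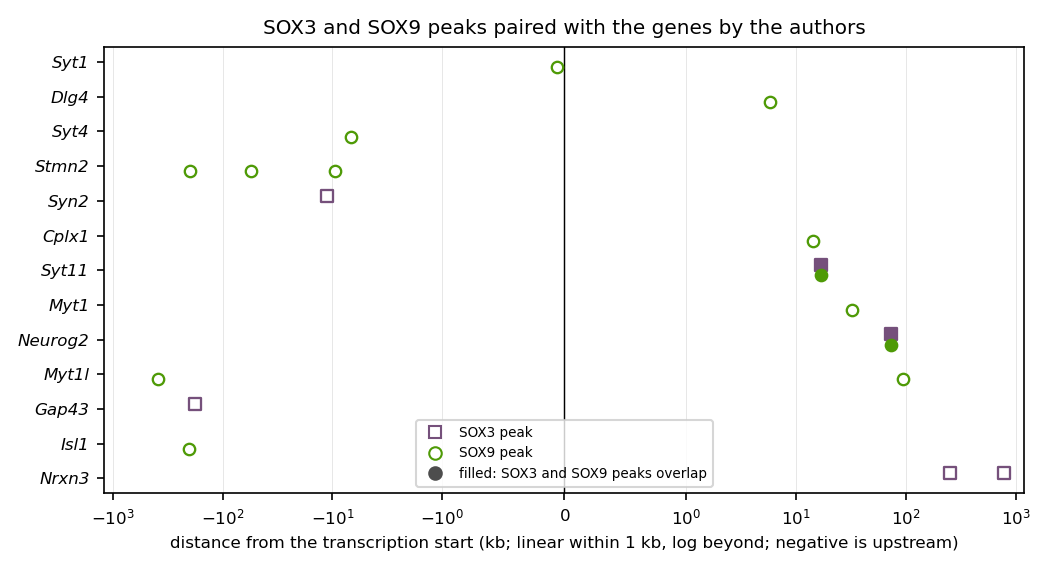
Distance of each SOX3 peak (squares) and SOX9 peak (circles) from the transcription start of the gene the authors paired it with, in kb on an axis that is linear within 1 kb and logarithmic beyond; filled symbols mark SOX3 and SOX9 peaks that overlap. The peak at Syt1 is the only one within 1 kb, and the overlapping pairs are at Syt11 and Neurog2.

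Genes with and without a peak both rose and fell. Of the 13 with a SOX3 or SOX9 peak 6 rose, 1 fell, 5 did neither and 1 was not tested. Of the 27 without, 15 rose, 6 fell, 3 did neither and 3 were not tested. Over all genes tested, with or without a peak, 35.2% rose and 35.2% fell. The counts depend on GPC replicate 3. Without it Neurog2 and Syt11 were called higher in glia and Stmn2 lower, and all 3 have a peak and are counted here as neither. Those calls rest on the narrow spread of the GPC libraries that remain. The peak lists carry no replicates, and no comparison of occupancy between GPC and glia was made.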

How the data were processed

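RNA values come from 1 table of 22958 genes, in which the authors deposited read counts and RPKM side by side for 4 GPC and 3 glia libraries. The file header gives mapped reads, of which 80.93% to 83.09% were counted. Peaks were called with MACS or MACS2 against mm9, as the submitters' processing notes list them. The sources used here do not give the aligner, the read counter or the strand. Peaks came as 1 deposited list per factor, so replicates could not be compared. The NFIA list carries a deposited score per peak, and the SOX3 and SOX9 lists carry the gene and distance in bp that the authors paired with each peak. H3K27Ac and input samples were not analysed here.

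Counts were tested with edgeR 4.0.16 (R 4.3.3; TMM, default expression filter, robust quasi-likelihood fit, 2-sided, Benjamini-Hochberg at 0.05 over 13588 genes). RPKM served for levels only, and the SE is the log2 change divided by the square root of F. Genes named outside the 40 are the 2 with the largest rise and fall per list among those called with non-overlapping groups, unless said otherwise; some results are not reported here. Peaks sharing at least 1 bp overlap. The genes and lists were chosen with earlier results of these data known. The script was tested on simulated counts. Intervals and limits cover counting error only where they rest on reads. Alternatives tried were size factors, DESeq2 1.42.0, the filter, a replicate block, leaving out each library, peak distance and motif mismatches.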

Additional observations from a re-analysis of the deposited data

Results flagged for a closer look

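In 8 of the 36 tested genes 1 GPC library lay far from the other 3, and in 7 of them it was GPC replicate 3, each time the highest. Chance alone marks about 1 in 20 groups of values. The same check marked 1476 of all 13588 genes tested, 10.9%, against 22.2% of the 36. GPC replicate 3 was the library apart in 1169 of them, so it stood apart beyond these genes too. It was apart and high in 650, 4.78% of all genes tested, against 19.4% of the 36. It was apart and low in 519, 3.82%, against 0% of the 36. GPC replicate 3 was at 2.09 RPKM for Neurog2 (0.345 to 0.403 in the others), at 2.06 for Rbfox3 (0.8287 to 0.988) and at 1.48 for Nrxn3 (0.748 to 0.856). It was at 255 RPKM for Syt11 (158.5 to 165), 27.2 for Cplx2 (13.7 to 14.5), 21.2 for Syn2 (13.3 to 14.3) and 14.2 for Camk2a (9.61 to 10.1). For Gad1, GPC replicate 4 was at 0 RPKM and the others between 0.0854 and 0.0980, from 4 to 6 reads each.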

How the results depend on the processing

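Of the 28 genes called, 23 kept their call under all of the 12 alternatives that gave a value, and Cplx2, Syt4, Stmn3, Syn1 and Camk2a lost it at least once. With each library left out in turn, 4362 to 5159 of all genes rose and 4150 to 5114 fell, 17 to 23 of the neuronal genes rose and 6 to 8 fell, and their median log2 change was 0.60 to 0.79. DESeq2 called 20 rising and 7 falling, and the stricter filter, which tested 30, called 19 and 6. Without GPC replicate 3, the log2 change of Neurog2 (-0.579 to 1.01 over the libraries left out) reversed to 1.01 and that of Syp (-0.041 to 0.175) to -0.041. Same-numbered GPC and glia libraries, taken as deviations from their group means, correlated at -0.02, 0.138 and 0.068. GPC replicates 2 and 3 correlated best with their own number, and GPC replicate 1 with glia replicate 3 (0.094). With so few libraries these values cannot show whether the numbers pair them. With the replicate block 4518 genes rose and 4382 fell in all, 19 and 7 of them among the neuronal genes (median 0.66), and Stmn3 (adjusted p = 0.0719) and Syn1 (0.0517) lost their call. Limiting peaks to 100 kb left 3 genes with a SOX3 peak, and limiting them to 10 kb left 0 with SOX3, 4 with SOX9 and 4 with either. Allowing 2 mismatches left 1 gene with an RE1 match. Adding Mtap2, an alternative chosen after seeing the data, gave 21 rising and 8 falling of 37, with a median of 0.67. Depth limits the 4 untested genes and Stmn2, Syt4, Gad1 and Neurod1, which rest on few reads.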
